A study of Mus musculus with 6 samples.

Results

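The 4 tektin genes Tekt1, Tekt2, Tekt4 and Tekt5 and the 6 tubulin genes Tuba1a, Tubb2a, Tubb2b, Tubb3, Tubb4b and Tubb6 were followed in RNA-seq of mouse liver. They are 10 of the 56305 genes of the table of normalized counts, and all 10 were found in it by symbol. The genes were named with their difference between the genotypes already known, so their values are given as a description, with no p-value. The study examined how class 3 PI3K, a lipid kinase complex of which Vps15 is the regulatory subunit, acts on the liver clock and metabolism. Total RNA came from the livers of 3 control mice, labelled WT, and 3 Vps15LKO mice, 1 library per mouse. The Vps15LKO mice were AlbCre+;Vps15f/f: both copies of Vps15 (gene symbol Pik3r4) are floxed, and Cre is driven by the albumin promoter, which is active in hepatocytes and their precursors. Which other cells of the liver lost Vps15 was not measured in these libraries. All mice were male, 5 weeks of age, fed chow ad libitum under a 12 h light and 12 h dark cycle and sampled at ZT6, 6 h after lights on. Whether the WT mice carried floxed alleles or Cre is not given for these libraries.

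Microtubules are built from dimers of an α-tubulin and a β-tubulin, and mammals make several isotypes of each from separate genes. The isotypes are close to each other in sequence and differ mostly in their C-terminal tails, which reach out from the microtubule and are modified by enzymes. Tektins are filament-forming proteins that lie inside the doublet microtubules of motile cilia and sperm flagella. Hepatocytes carry neither motile nor primary cilia, whereas bile duct cells carry a primary cilium. Tuba1a, Tubb2b and Tubb3 are best known from developing neurons, and Tubb4b is widely expressed and is a main β-tubulin of cilia.

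Several of the isotypes share long stretches of sequence, so that a read from these stretches cannot be told from a read of another gene. The coding sequences of Tubb2a and Tubb2b were 96.5% identical, with 47 mismatches over 1335 bases. Their last 90 coding bases before the stop codon, which encode the C-terminal tail, differed at 3 bases. All 3 leave the amino acid unchanged, so the encoded tails of Tubb2a and Tubb2b are the same. The 3 bases are shown in capitals (GENCODE M21 transcripts, GRCm38).
Tubb2a: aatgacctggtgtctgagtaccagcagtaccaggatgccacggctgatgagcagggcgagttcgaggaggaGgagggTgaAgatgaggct
Tubb2b: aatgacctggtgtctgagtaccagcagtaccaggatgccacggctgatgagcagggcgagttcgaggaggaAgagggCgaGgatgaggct

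The start of the tubulin coding sequence matters for tubulin RNA levels, since the nascent peptide of the first codons is recognised when free tubulin is in excess and the RNA is then degraded. The 30 coding bases that open the isotypes are shown from the same transcripts, with the opening 4 codons in capitals.
Tuba1a: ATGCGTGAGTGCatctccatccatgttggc
Tubb2a: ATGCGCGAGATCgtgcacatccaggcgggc
Tubb2b: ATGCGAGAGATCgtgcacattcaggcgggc
Tubb3: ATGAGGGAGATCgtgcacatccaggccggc
Tubb4b: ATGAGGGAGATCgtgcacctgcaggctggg

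Promoter windows of 300 bases, from 250 bases before to 50 bases after the RefSeq start site, matched 8 of the 10 genes (GRCm38.p6). Tubb2b and Tubb6 were not matched. The windows are shown for 5 genes because the tektins and tubulins that follow differ in level, and the capitals mark matches of the motifs searched on both strands. The motifs were the E-box CACGTG bound by Bmal1–Clock, the antioxidant response element core TGACNNNGC, the AP-1 site TGANTCA, the RFX site GTTGCC known from cilium genes, the GC box GGGCGG, the TEAD site GGAATG, the TATA box TATAAA and the CCAAT box. In the windows matched to the 10 genes, no match shared a base with another match.
Tekt5, chr16:10395406-10395705, minus strand: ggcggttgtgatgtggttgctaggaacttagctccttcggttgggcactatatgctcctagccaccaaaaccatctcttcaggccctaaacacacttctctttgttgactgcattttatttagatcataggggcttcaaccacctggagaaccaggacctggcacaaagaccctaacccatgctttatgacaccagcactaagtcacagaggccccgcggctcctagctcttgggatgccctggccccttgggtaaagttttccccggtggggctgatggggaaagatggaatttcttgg
Tekt2, chr4:126325639-126325938, minus strand: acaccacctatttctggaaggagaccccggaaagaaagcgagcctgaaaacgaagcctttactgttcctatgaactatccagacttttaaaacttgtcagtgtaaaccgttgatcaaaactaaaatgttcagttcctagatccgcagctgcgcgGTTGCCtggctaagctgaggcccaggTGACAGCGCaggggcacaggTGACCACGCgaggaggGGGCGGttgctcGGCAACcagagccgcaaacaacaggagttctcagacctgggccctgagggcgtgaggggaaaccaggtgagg
Tubb2a, chr13:34077959-34078258, minus strand: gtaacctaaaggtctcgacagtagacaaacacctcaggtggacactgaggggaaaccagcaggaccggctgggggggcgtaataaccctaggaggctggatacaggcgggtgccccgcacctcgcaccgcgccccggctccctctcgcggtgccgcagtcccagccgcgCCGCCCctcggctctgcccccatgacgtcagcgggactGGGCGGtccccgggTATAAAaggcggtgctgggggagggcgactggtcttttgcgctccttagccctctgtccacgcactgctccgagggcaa
Tuba1a, chr15:98953452-98953751, minus strand: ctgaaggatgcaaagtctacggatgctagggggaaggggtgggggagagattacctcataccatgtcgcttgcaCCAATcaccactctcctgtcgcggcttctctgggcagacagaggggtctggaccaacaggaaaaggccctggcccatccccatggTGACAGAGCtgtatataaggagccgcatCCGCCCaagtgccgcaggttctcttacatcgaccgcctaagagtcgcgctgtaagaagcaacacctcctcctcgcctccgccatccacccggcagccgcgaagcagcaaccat
Tubb4b, chr2:25224653-25224952, minus strand: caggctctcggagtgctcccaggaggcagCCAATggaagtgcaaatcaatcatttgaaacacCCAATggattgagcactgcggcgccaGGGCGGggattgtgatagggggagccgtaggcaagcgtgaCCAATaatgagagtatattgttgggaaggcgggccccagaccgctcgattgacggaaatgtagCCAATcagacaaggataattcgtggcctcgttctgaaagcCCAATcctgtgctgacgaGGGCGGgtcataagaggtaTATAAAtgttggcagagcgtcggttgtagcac

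The Tekt5 window held no match of any of the 8 motifs, which says only that these letters are not in this window. The RFX site was found in a window of Tekt1 (at −35 and −15 from the start site), Tekt2 (at −96 and −22) and Tekt4 (at 8), and 12.5% of all 32851 promoter windows hold it. Tubb2a held a TATA box at −29 and GC boxes at −81 and −43, whose shares over all windows are 13.6% and 35.7%. Tuba1a held 1 antioxidant response element core at −91 (12.4% of all windows), 1 GC box at −63 and 1 CCAAT box at −176. Tubb4b held 5 CCAAT boxes, which 37.4% of all windows hold at least once. The E-box, held by 7.15% of all windows, the AP-1 site (7.81%) and the TEAD site (14.7%) were in none of the windows of the 8 genes. A match is a run of letters and was not tested as a binding site.

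The 6 libraries held between 16137093 and 18110223 reads on genes, and 1 read was worth 1.25 to 1.35 normalized counts for the WT and 0.707 to 0.810 for the Vps15LKO libraries, so a low gene was measured more finely in Vps15LKO livers. Pik3r4 fell from 514 ± 57.1 to 353 ± 11.02 normalized counts (SD, n = 3; log2 difference −0.54, SE 0.11, limma adjusted p = 0.0021). Read per total reads, that is with each library scaled to the same number of reads on genes, the difference was 0.19, so its direction depends on the scaling. Of the 15430 genes that passed the filter on low values, 66.5% were called, 33.5% higher and 33% lower in Vps15LKO livers. Scaling by total reads raised the median log2 difference of all genes by 0.72 and gave 10300 calls higher and 1712 lower, against 5163 and 5099. The RNA is that of whole liver, in which fewer cells of a type and less RNA per cell cannot be told apart.

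Among the tektins, Tekt5 was the one with a level in liver, and that level was in Vps15LKO livers. Tekt5 (ENSMUSG00000039179, chromosome 16 from 10357948 to 10395490, minus strand) encodes a tektin known from the sperm flagellum. It held 0 reads in each of the 3 WT libraries and 1405, 1161 and 1386 normalized counts in the 3 Vps15LKO libraries, from 1840, 1433 and 1959 reads. All Vps15LKO livers lay above all WT livers, and the Vps15LKO livers varied little around their mean of 1317 ± 136 (SD, n = 3). Against a WT floor of 3 reads per library, 3.92 normalized counts, the Vps15LKO mean was at least 336-fold higher. None of the 100-base windows of the Tekt5 transcript occurred in another gene's transcript, and no exon of another gene overlapped it. Ranked by the log2 difference of normalized count + 1, Tekt5 was at 4 of 15430 genes, from the contrast on which it was chosen.

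The other tektins were at or near the limit of detection in both genotypes. Tekt1 (ENSMUSG00000020799, chromosome 11 from 72344722 to 72362442, minus strand), a tektin of motile cilia and flagella, held 0 reads in the WT libraries and 1, 1 and 3 reads in the Vps15LKO libraries. Both groups of Tekt1 were within the floor of 3 reads per library, so no fold is given. Tekt2 (ENSMUSG00000028845, chromosome 4 from 126322121 to 126325688, minus strand), also a tektin of cilia and flagella, held 1, 2 and 0 reads in WT and 4, 3 and 14 reads in Vps15LKO libraries. The Tekt2 values of the groups overlapped on the scale of normalized counts (1.33, 2.50 and 0 in WT against 3.05, 2.43 and 9.90), and 14 of the 21 Vps15LKO reads came from Vps15LKO replicate 3. The ratio of Tekt2 reads scaled to the libraries was 4.06, with an exact 95% interval of 1.21 to 21.3 that covers counting error only. Of the Tekt2 exon bases, 20.8% lie opposite an antisense gene, Gm12945, and whether the counting used strand is not given in the sources used here. Tekt4 (ENSMUSG00000024175, chromosome 17 from 25454615 to 25476602, plus strand), best known from sperm, held 1 read in WT replicate 1 and 0 in the other 5 libraries. Of the tektin genes outside the 10, Tekt3 was at 0 in all 6 libraries, and Ccdc105 held 0 reads in WT and 1 read in each Vps15LKO library. No tektin gene measured here other than Tekt5 held more than 14 reads in a library, and the coding sequences of the tektin pairs were 44.8% to 53.9% identical.

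**Figure D1:**
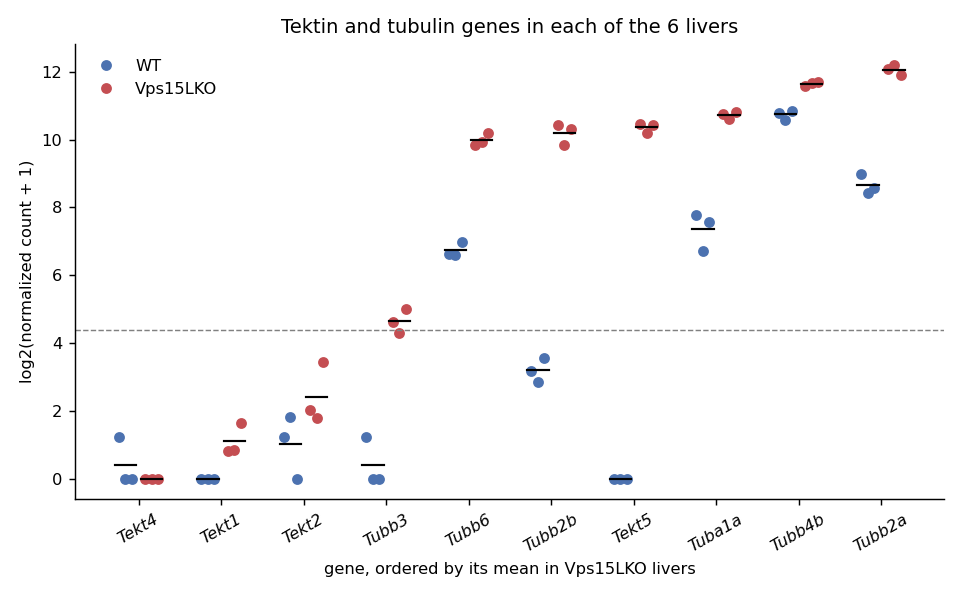
Normalized counts of the 10 genes in each liver, on the y axis as log2(normalized count + 1). Points are livers (blue WT, red Vps15LKO, n = 3 each), black lines are means, and the dashed line marks 20 normalized counts, the filter on low values. Tekt5 is at 0 in all WT livers and between 1161 and 1405 normalized counts in the Vps15LKO livers, whereas Tekt1, Tekt2 and Tekt4 stay under the filter.

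Among the β-tubulins, Tubb2a reached the highest level per kb of the 10 genes in Vps15LKO livers (2678 ± 281, SD, n = 3). Tubb2a (ENSMUSG00000058672, chromosome 13 from 34074274 to 34078007, minus strand) held 509, 342 and 381 normalized counts in WT and 4344, 4746 and 3845 in Vps15LKO livers. Its means were 411 ± 87.3 and 4312 ± 452 (SD, n = 3), a ratio of 10.5 and a log2 difference of 3.40 (SE 0.15). The Vps15LKO livers lay far above the WT livers, with no overlap, and read per total reads the difference was 4.13.

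Tubb2b (ENSMUSG00000045136, chromosome 13 from 34126748 to 34130466, minus strand), a close relative of Tubb2a known from neurons, lies 48741 bases from it. It held 7.96, 6.25 and 10.8 normalized counts in WT, from 6, 5 and 8 reads, and 1385, 923 and 1279 in Vps15LKO livers. The means were 8.33 ± 2.29 and 1196 ± 242 (SD, n = 3), a ratio of 144 and a log2 difference of 7.01 (SE 0.22). As for Tekt5, no WT library reached the filter of 20 normalized counts, so Tubb2b passed it through the Vps15LKO livers alone. Of its 100-base windows, 27.8% occurred in another gene's transcript, as did 36.9% of those of Tubb2a, and 543 windows were shared between these genes. How reads that map to several places were counted is not given in the sources used here. The share of Tubb2b in the summed normalized counts of Tubb2a and Tubb2b, without a length, was 1.54%, 1.79% and 2.75% in WT and 24.2%, 16.3% and 24.96% in Vps15LKO livers. Since both genes share the library, this share does not depend on the scaling, and it was higher in all Vps15LKO livers than in any WT liver.

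Tubb4b (ENSMUSG00000036752, chromosome 2 from 25222160 to 25224702, minus strand), the main β-tubulin gene of the WT livers, had the smallest difference of the 6 genes that passed the filter. It held 1779, 1544 and 1845 normalized counts in WT and 3073, 3231 and 3364 in Vps15LKO livers. The groups did not overlap, and the means of 1723 ± 159 and 3223 ± 146 (SD, n = 3) differed by 0.91 on the log2 scale (SE 0.10), or by 1.63 read per total reads. Of its exon bases, 5.8% lie opposite Fam166a, and 30.6% of its 100-base windows occurred in other genes' transcripts, mostly in the pseudogene Tubb4b-ps1, which held 11.4 ± 4.28 and 21.1 ± 9.52 normalized counts.

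Tubb6 (ENSMUSG00000001473, chromosome 18 from 67390717 to 67402749, plus strand), a further β-tubulin, held 98.1, 96.2 and 125 normalized counts in WT and 916, 968 and 1169 in Vps15LKO livers. Its means were 107 ± 16.3 and 1018 ± 134 (SD, n = 3), a log2 difference of 3.25 (SE 0.14) with no overlap. None of its 100-base windows occurred in another gene's transcript, though the read length and the mismatches allowed are not given in the sources used here.

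Tubb3 (ENSMUSG00000062380, chromosome 8 from 123411424 to 123422015, plus strand), whose protein is used as a marker of neurons, was low in both groups. It held 1 read in WT replicate 1 and 0 in the other WT libraries, and 31, 23 and 44 reads in the Vps15LKO libraries, or 23.7, 18.6 and 31.1 normalized counts. The ratio of the scaled reads was 56.9, with an exact 95% interval of 9.97 to 2269 that covers counting error only. The values did not overlap, but Tubb3 reached 20 normalized counts in only 2 libraries and so did not enter the fit. None of its 100-base windows occurred in another gene.

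Tuba1a (ENSMUSG00000072235, chromosome 15 from 98949837 to 98953703, minus strand) was the α-tubulin among the 10 genes. It held 219, 104 and 190 normalized counts in WT and 1730, 1557 and 1804 in Vps15LKO livers. The means were 171 ± 59.9 and 1697 ± 127 (SD, n = 3), a ratio of 9.94 and a log2 difference of 3.37 (SE 0.24). The groups did not overlap, and WT replicate 2 was the lowest of the 6 livers. With any 1 of the 6 libraries left out, the difference lay between 3.05 and 3.58. Tuba1a is 98.3% identical in coding sequence to Tuba1b and 97.1% to Tuba1c, and 65.9% of its 100-base windows occurred in other genes' transcripts, most often in Tuba1c. Gm49450, a gene on the same strand, overlapped 26.2% of its exon bases and itself went from 409 ± 65.3 to 1475 ± 133 normalized counts (log2 difference 1.86, limma adjusted p = 7.3e-06). How far reads from these shared stretches entered the value of Tuba1a was not tested.

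In all, 6 of the 10 genes passed the filter and 6 were called higher, beside 33.5% of all tested genes. These 6 had all Vps15LKO livers above all WT livers, beside 36.4% of the tested genes. The same held for Tekt1 and Tubb3, which did not pass the filter, so for 8 of the 10 genes. Because the genes were chosen on this contrast, nothing is read from these counts. Among the 6 that passed, the coefficient of variation lay between 4.52% and 20.2% in Vps15LKO livers and reached 35.1% in WT, for Tuba1a.

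Levels were put in order per kilobase of exon, as normalized counts per kb. In WT livers the order was Tubb4b (825 ± 75.9), Tubb2a (255 ± 54.2), Tuba1a (94.8 ± 33.2), Tubb6 (43.7 ± 6.70) and Tubb2b (3.63 ± 0.999), each separate from the next over the 3 livers. Tekt2, Tubb3 and Tekt4 followed at under 1 per kb and overlapped each other, and Tekt1 and Tekt5 were at 0. In Vps15LKO livers the order was Tubb2a (2678 ± 281), Tubb4b (1543 ± 69.7), Tuba1a (941 ± 70.3) and Tekt5 (729 ± 75.0), again separate. Tubb2b (521 ± 106) and Tubb6 (418 ± 54.9) came next, and their ranges over the livers overlapped. Tubb3 (13.1 ± 3.36) and Tekt2 (2.70 ± 2.18) were separate from each other, and Tekt1 and Tekt4 closed the order at 0.760 ± 0.475 and 0. With the longest coding transcript as the length in place of all exons, Tubb4b stood at 2017 ± 91.1 and Tubb6 at 579 ± 76.1 per kb in Vps15LKO livers, so the order of Tubb6 and Tubb2b (548 ± 111) turned.

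The remaining tubulin genes moved in both directions. Of 14 such genes in the list, 9 passed the filter, 5 were called higher (33.5% of all genes) and 2 lower (33%), with a median log2 difference of 0.84, against −0.02 over all tested genes. The rises included Tubb5, a widely expressed β-tubulin, from 1287 ± 62.8 to 6815 ± 1456 normalized counts (SD, n = 3; log2 difference 2.38, limma adjusted p = 4.2e-06). Tuba1b rose from 602 ± 77.5 to 1982 ± 80.5 (1.72, adjusted p = 4.3e-06), and Tuba1c from 927 ± 114 to 1658 ± 185 (0.84, adjusted p = 0.00035). Tuba8 and Tubb4a also rose, from 103 ± 39.1 to 437 ± 61.4 (2.12, adjusted p = 8.4e-05) and from 7.95 ± 4.19 to 52.6 ± 1.99 (2.70, adjusted p = 0.00029). Tubb4a was under the filter in every WT library and was tested through the Vps15LKO livers alone, and with 20 normalized counts asked of every library 4 of the other tubulin genes were called higher. Tuba4a, the α-tubulin gene with the highest level per kb in WT livers, fell from 3490 ± 148 to 2019 ± 206 (−0.79, adjusted p = 0.0002), and Tubg1, the γ-tubulin that seeds microtubules, fell from 734 ± 72.2 to 460 ± 19.1 (−0.67, adjusted p = 0.00041). Both falls depend on the scaling, since read per total reads Tuba4a differed by −0.07 and Tubg1 by 0.06, and neither was called. Tubd1 and Tube1, the δ- and ε-tubulins of centrioles, differed by 0.16 (adjusted p = 0.61) and −0.12 (adjusted p = 0.76). Tuba3a, Tuba3b and Tubal3 were at 0 in all libraries, and Tubb1 and Tubg2 did not pass the filter (2.94 and 3.35, and 6.42 and 22.0 normalized counts).

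**Figure D2:**
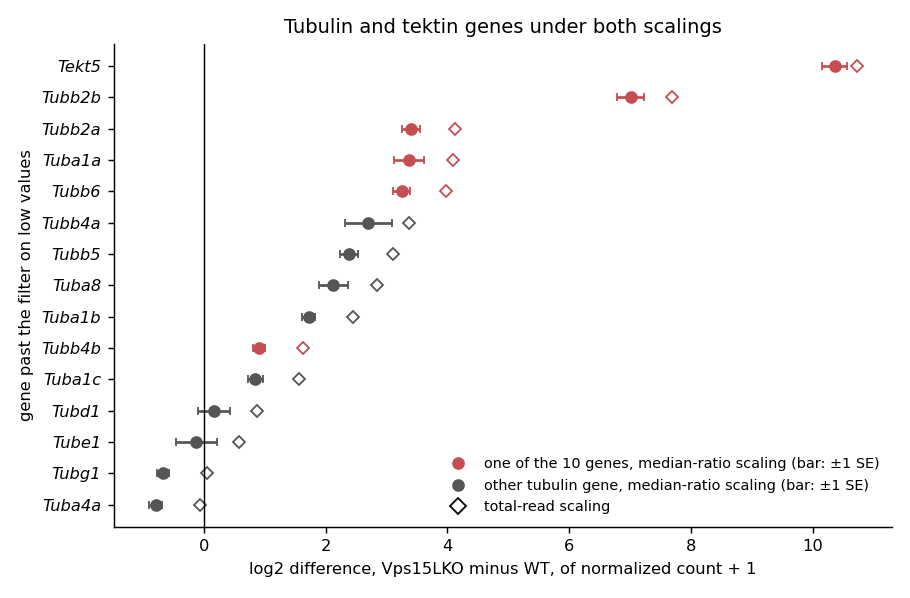
Log2 difference between the genotypes (x axis, Vps15LKO minus WT, of normalized count + 1) for each tubulin and tektin gene that passed the filter. Filled points use the authors' scaling with a bar of 1 SE, open diamonds use total reads, red marks genes of the 10 and grey the other tubulin genes. Tekt5 and Tubb2b lie farthest to the right at 10.36 and 7.01, where Tekt5 depends on the pseudocount because WT is at 0, and Tuba4a and Tubg1 lie left of 0 under the authors' scaling and at −0.07 and 0.06 with total reads.

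The make-up of the tubulin RNA, which does not depend on scaling between libraries, differed between the genotypes. As a share of the summed normalized counts per kb of 8 β-tubulin genes, Tubb4b was 52.6%, 54.1% and 56.2% in WT and 20.7%, 22.1% and 21.2% in Vps15LKO livers. Tubb2a was 19.5%, 15.5% and 15.1% in WT and 37.9%, 42.0% and 31.4% in Vps15LKO livers. Tubb4b, the leading β-tubulin of WT, was thus behind Tubb2a in all Vps15LKO livers although its own level was higher there. Tubb4b was also behind Tubb5 there (27.1%, 24.0% and 33.3%), and Tubb5 exceeded Tubb2a in Vps15LKO replicate 3. With the longest coding transcript as the length, Tubb2a and Tubb5 averaged 31.9% and 30.3% in Vps15LKO livers.

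Tubb2b went from 0.237% ± 0.0537 to 7.18% ± 1.38 of the β-tubulin sum and Tubb6 from 2.88% ± 0.392 to 5.75% ± 0.516 (SD, n = 3). Tubb5 held 25.5% ± 1.10 in WT and 28.1% ± 4.73 in Vps15LKO livers, with ranges that overlapped. Tubb3 held at most 0.219% in any library. The sum itself was 1520 ± 135 in WT and 7248 ± 319 in Vps15LKO livers, a ratio of 4.77. As a share of all reads on genes, without a length, the ratio was 7.80.

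Among the 8 α-tubulin genes, Tuba1a held 6.34%, 3.46% and 5.69% of the summed normalized counts per kb in WT and 28.9%, 24.8% and 27.9% in Vps15LKO livers. Tuba4a went the other way, from 52.2% ± 2.82 to 15.7% ± 1.17, and Tuba1b went from 17.7% ± 1.45 to 30.6% ± 2.11 (SD, n = 3). Tuba1c held 22.4% ± 2.03 and 20.9% ± 1.56, and its ranges overlapped. The α-tubulin sum was 1810 ± 130 and 3462 ± 131, a ratio of 1.91, or 2.44 as a share of all reads on genes, without a length. With 3 livers against 3, an exact permutation test of a share cannot give a two-sided p below 0.1. Tuba1a, Tuba1b and Tuba1c share long stretches of sequence, so the split of reads among these 3 genes is uncertain. Of the windows of Tuba4a, 46.7% also occurred in the overlapping gene Stk16, which itself fell from 1356 ± 168 to 605 ± 94.8 normalized counts (log2 difference −1.17, limma adjusted p = 9.7e-05). How far reads from these windows entered the value of Tuba4a was not tested.

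**Figure D3:**
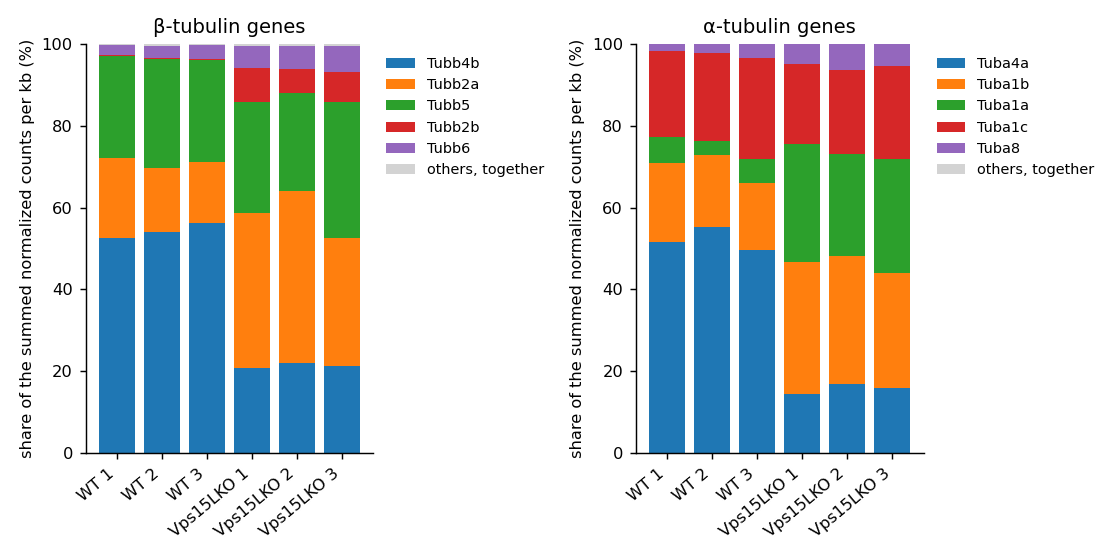
Share of each gene in the summed normalized counts per kb of the β-tubulin genes (left) and of the α-tubulin genes (right), y axis in percent, 1 bar per liver. Genes with under 1% in both groups are drawn together. Tubb4b and Tuba4a, drawn at the base of the bars, go from 54.3% to 21.3% and from 52.2% to 15.7% on average, and Tubb2a, Tubb2b, Tuba1a and Tuba1b hold more in Vps15LKO livers.

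Of 26 tested genes for proteins that bind microtubules, 16 were called higher and 3 lower, with a median log2 difference of 0.61, beside 33.5% higher, 33% lower and a median of −0.02 over all tested genes. Read per total reads, 23 were called higher and 2 lower. Of the 16, Map1a, Map1b, Map2, Dclk1 and Tppp3 were under 20 normalized counts in every WT library and passed the filter through the Vps15LKO livers alone, so that nothing is read from their part in this count or median. With 20 normalized counts asked of every library, 11 were called higher and 3 lower. Map1b, a neuronal microtubule stabiliser, rose from 9.50 ± 2.88 to 178 ± 68.4 normalized counts (SD, n = 3; log2 difference 4.06, limma adjusted p = 1.2e-05). Dclk1, a doublecortin-like kinase, rose by 3.52 (adjusted p = 0.00065), Clip2, a plus-end protein, by 2.84 (adjusted p = 3.2e-06) and Stmn1, which sequesters tubulin dimers, by 2.80 (adjusted p = 1.7e-05). Tppp, a tubulin polymerisation promoter, fell from 280 ± 39.7 to 56.1 ± 24.0 (−2.37, adjusted p = 0.0001) and Mtus1 from 4014 ± 320 to 1781 ± 298 (−1.18, adjusted p = 8.3e-05). Mapt, the gene of tau, fell by 0.69 on the log2 scale (adjusted p = 0.022) but differed by 0.03 read per total reads, and its call was lost without WT replicate 1 (−0.59) or Vps15LKO replicate 2 (−0.50). The neuronal genes Stmn2, Stmn3, Stmn4, Map6 and Dcx were under the filter.

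Genes for folding tubulin and assembling its dimers were called in both directions. Of 24 tested genes, 7 (29.2%) were called higher and 5 lower, with a median of 0.07, beside 33.5% higher and 33% lower over all tested genes. The rises were led by Pdcl3 (log2 difference 0.80, limma adjusted p = 0.00025), a chaperonin cofactor, Arl2 (0.76, adjusted p = 0.014), Vbp1 (0.71, adjusted p = 0.00097), a prefoldin subunit, and Ttc5 (0.54, adjusted p = 0.0078), which recognises the nascent tubulin peptide encoded by the opening codons shown above. The falls were led by Tcp1 (−0.89, adjusted p = 7e-05), a subunit of the chaperonin that folds tubulin, the prefoldin subunits Pfdn2 (−0.72, adjusted p = 0.00021) and Pfdn6 (−0.69, adjusted p = 0.00064), and Tbcel (−0.52, adjusted p = 0.015). Read per total reads, 20 were called higher and 0 lower, where Tcp1 differed by −0.16 and Pfdn2, Pfdn6 and Tbcel by 0.01, 0.04 and 0.21, none of them called. Without Vps15LKO replicate 3, 4 genes in place of 7 were called higher, and Arl2 (0.65) and Tbcel (−0.40) lost their calls.

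The enzymes that modify or sever tubulin were split. Of 21 tested genes, 7 were called higher (33.3%, beside 33.5% of all tested genes) and 8 lower (33% of all), with a median of −0.09. Vash1, which removes the last tyrosine of α-tubulin, rose from 19.7 ± 6.47 to 83.6 ± 6.93 normalized counts (SD, n = 3; log2 difference 2.07, limma adjusted p = 0.00013), and passed the filter through the Vps15LKO livers. Ttll7, a polyglutamylase that acts on β-tubulin, rose by 1.60 (adjusted p = 0.00012) and Ttll12 by 0.73 (adjusted p = 0.00048). The falls were led by Agbl3 (−0.997, adjusted p = 0.0043) and Agtpbp1 (−0.92, adjusted p = 0.0012), which remove glutamates, Atat1 (−0.96, adjusted p = 0.00023), the α-tubulin acetyltransferase, and Spast (−0.78, adjusted p = 0.00046), a severing enzyme. Read per total reads, 14 were called higher and 0 lower.

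Genes of the motile axoneme, where tektins sit, were mostly under the filter. Of 42 genes, 14 were tested, 6 were called higher (42.9%, beside 33.5% of all tested genes) and 3 lower (33% of all), with a median of 0.26. The 6 genes called higher were Dnah1, Foxj1, Dnah11, Mns1, Dnah2 and Dnal1, and all passed the filter through the Vps15LKO livers, so nothing is read from this share. Dnah1, an axonemal dynein, rose from 2.21 ± 2.82 to 95.8 ± 6.36 normalized counts (SD, n = 3; log2 difference 5.31, limma adjusted p = 8.6e-05), and Foxj1, the transcription factor that drives motile ciliogenesis, from 10.1 ± 4.11 to 125 ± 41.6 (3.51, adjusted p = 3e-05). Dnah11 rose by 2.64 (adjusted p = 0.00053) and Mns1, a protein inside the doublet, by 2.28 (adjusted p = 0.00067). Ccdc151, a dynein docking factor, fell from 43.1 ± 3.43 to 10.5 ± 3.04 (−1.97, adjusted p = 0.00031), Dnaic1 from 51.8 ± 44.2 to 15.2 ± 2.58 (−1.40, adjusted p = 0.039) and Cfap20 from 603 ± 72.8 to 383 ± 10.9 (−0.65, adjusted p = 0.00086), though read per total reads Cfap20 differed by 0.08. Ccdc151 and Dnaic1 in turn passed the filter through the WT livers alone. The call of Dnaic1 was lost without any 1 of the libraries but WT replicate 2, with values from −1.58 to −0.75. Mcidas and Gmnc, which open the multiciliated cell programme, and Armc4, Spag16 and Ribc2 were at 0 in all 6 libraries. The filter mattered here, since with every gene above 0 tested 18 were called higher and 5 lower, and with 20 normalized counts asked of every library 0 and 1.

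Genes of transport in the primary cilium gave 9 calls higher (28.1%, beside 33.5% of all tested genes) and 3 lower (33% of all) among 32 tested, with a median of 0.21. Read per total reads, 30 were called higher and 0 lower, whereas quantile normalization gave 6 higher and 7 lower, so the balance depends on the scaling. Dync2li1 and Ift57 rose most, from 13.6 ± 5.83 to 84.6 ± 13.1 (SD, n = 3; log2 difference 2.61, limma adjusted p = 9.7e-05) and from 14.8 ± 1.09 to 90.1 ± 24.2 normalized counts (2.50, adjusted p = 3.6e-05). Neither reached 20 normalized counts in all WT livers, and Ift57 reached it in none, so both were tested through the Vps15LKO livers, and with 20 asked of every library 7 genes were called higher. Ift43 rose by 1.56 (adjusted p = 0.00066) and Ift122 by 1.41 (adjusted p = 0.00015). Ift20 (−0.95, adjusted p = 4.1e-05), Ift46 (−0.42, adjusted p = 0.003) and Ift172 (−0.35, adjusted p = 0.032) fell, though read per total reads Ift20 differed by −0.22 and was not called, and Ift46 and Ift172 differed by 0.31 and 0.37. The call of Ift172 was also lost without WT replicate 2 or 3 or Vps15LKO replicate 1 or 3, with values from −0.35 to −0.27.

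Markers of several, though not all, other cell types of the liver were mostly called higher in Vps15LKO livers. All 12 cholangiocyte markers were called higher (33.5% of all tested genes), with a summed level of 1495 to 1674 normalized counts over the WT and 13812 to 25562 over the Vps15LKO livers, led in log2 difference by Cldn4 (8.01) and Cftr (5.66). Both were under 20 normalized counts in every WT liver and passed the filter through the Vps15LKO livers alone, and with 20 asked of every library 7 cholangiocyte markers were left and called higher. Spp1 alone held 10402 to 20496 of the summed level in Vps15LKO livers. All 12 stellate cell and fibroblast markers were called higher (summed level 7322 to 7778 in WT and 31433 to 37400 in Vps15LKO livers), as were 11 of 12 macrophage markers (7232 to 8671 and 24901 to 28302), again beside 33.5% of all tested genes. All 12 proliferation markers were called higher, with a median of 4.05, beside 33.5% and −0.02 over all tested genes, and a summed level of 660 to 953 in WT and 4586 to 4983 in Vps15LKO livers. Bub1 and Aurkb among them were under 20 in every WT liver, and Ccnb1, Ccnb2, Plk1, Top2a and Cdk1 did not reach 20 in all WT livers. These genes were tested with the help of the Vps15LKO livers, so nothing is read from their part in this count or median. With 20 asked of every library 5 proliferation markers were called higher.

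The hepatocyte markers went the other way, with 9 of 10 called lower (33% of all tested genes) and a median of −1.92. Their summed level was 2893700 to 3307230 normalized counts across WT livers and 815573 to 1242980 across Vps15LKO livers. Most of it was Alb, the marker not called, at 2030860 to 2350420 and 620735 to 968935 (log2 difference −1.48, limma adjusted p = 0.37). Without the trend, and by edgeR and DESeq2, all 10 were called lower, Alb among them, and with quantile normalization 7. Of 12 endothelial markers, 5 were called higher and 5 lower, beside 33.5% and 33% of all tested genes (summed level 12305 to 13599 and 10970 to 12859). The part of these cells in the levels of the tubulin genes and of Tekt5 was not tested.

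Markers were also counted for the cell types for which Tekt5, Tubb3 and Tubb2b are best known. Of 12 male germ cell markers, Prm2, Tnp1, Tnp2, Acrv1, Odf1 and Spata19 were at 0 in all 6 libraries, and 1 was tested, Sycp3. Sycp3 fell from 296 ± 42.7 to 36.5 ± 8.62 normalized counts (SD, n = 3; log2 difference −2.997, limma adjusted p = 5.8e-06). The germ cell list summed to 266 to 342 normalized counts across WT and 46.0 to 66.4 across Vps15LKO livers. Most of this sum was Sycp3 (247 to 326 and 29.7 to 46.2). Of 12 neuron and Schwann cell markers, Elavl4, Nefl and Nefm were at 0 in all libraries, and the summed level of the list was 72.8 to 83.7 in WT and 68.1 to 94.1 in Vps15LKO livers, with overlap. Of the 2 tested, Rbfox3 differed by 0.02 on the log2 scale (limma adjusted p = 0.97). Syp, tested through the WT livers alone, differed by −0.80 (adjusted p = 0.046), a call lost without WT replicate 2 or 3 or Vps15LKO replicate 2 or 3, with values from −0.83 to −0.61. Among the markers under the filter, S100b went from 1.30 ± 1.33 to 11.03 ± 7.58 normalized counts (SD, n = 3), Gap43 from 0 to 5.67 ± 4.59 and Prph from 2.64 ± 1.37 to 7.01 ± 1.89, each without overlap. The part of such cells in the levels of Tekt5, Tubb3 and Tubb2b was not tested.

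**Figure D4:**
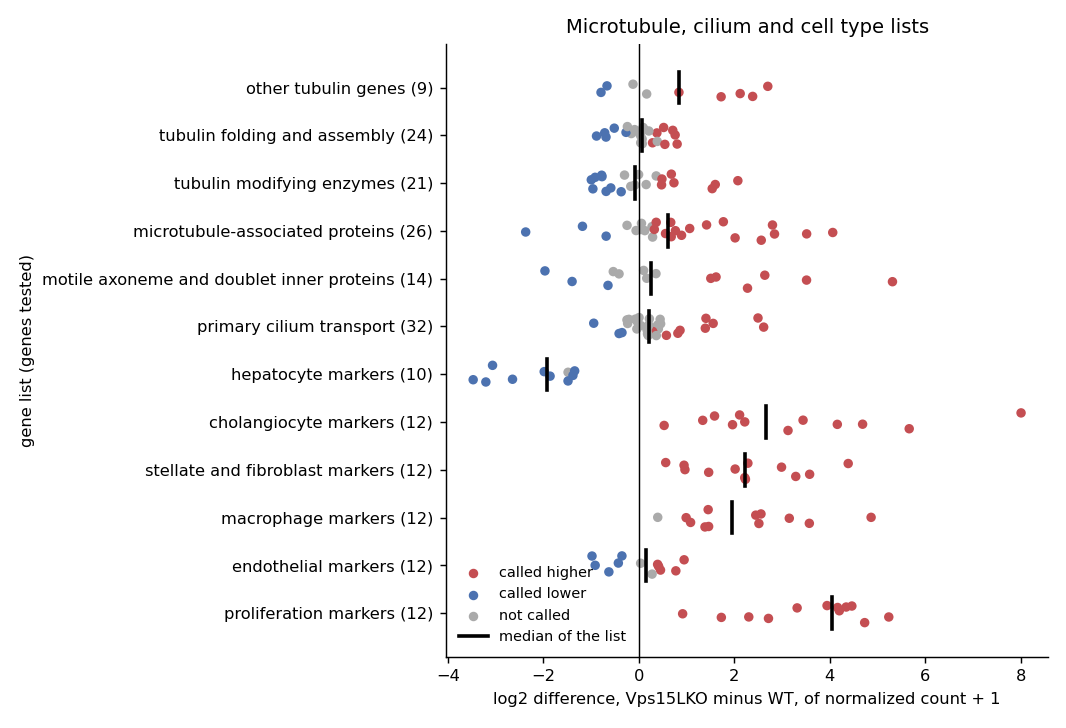
Log2 difference between the genotypes (x axis, Vps15LKO minus WT, of normalized count + 1) of each tested gene in the tubulin, microtubule, cilium and cell type lists (rows, with the number tested). Red and blue points were called higher and lower, grey points were not called, and black bars are list medians. Folding, modifying and cilium lists lie around 0, microtubule-associated proteins have a median of 0.61, and the cholangiocyte, stellate, macrophage and proliferation lists lie to the right. Genes tested through the Vps15LKO livers alone, such as Map1b and Dclk1, are drawn too, and nothing is read from their part in a median.

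The genes whose profiles over the 6 libraries came closest to Tekt5 and Tubb2a were found by the Euclidean distance between log2(normalized count + 1) less the WT mean, over 13170 protein-coding genes. Closest to Tekt5 was Slc7a11, the cystine transporter, at a distance of 0.877, with 0 in all WT livers and 1814, 1489 and 2269 normalized counts in Vps15LKO livers. Elovl7 and Gpnmb followed at 3.09 and 3.14. Because Tekt5 was at 0 in WT, its distances are set by the difference on which it was chosen and by the pseudocount, and nothing further is read from them. Closest to Tubb2a were Tnfrsf12a (0.372), the receptor of Tweak, Procr (0.399) and Camk2a (0.410), and these distances too follow the difference on which Tubb2a was chosen. Tnfrsf12a went from 129 ± 15.2 to 1336 ± 49.7 normalized counts (SD, n = 3), a log2 difference of 3.37 beside 3.40 for Tubb2a.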

How the data were processed

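RNA-seq libraries of 3 WT and 3 Vps15LKO livers were used. The authors cleaned the reads with SOAPnuke, aligned with HISAT2 (GRCm38), assigned reads to genes with featureCounts and scaled with DESeq2. What the authors deposited is a signal per gene, its number of reads over the size factor of the library. The values were whole multiples of 1 read for 100% of values in each library (tolerance 0.1 read), so reads were recovered. Versions and the strand and multi-mapping settings are not given in the sources used here. The chi-square per gene between livers of 1 genotype was 14.6 to 40.8, so no library repeated another.

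Genes that reached 20 normalized counts in 3 or more libraries (15430 of 56305) were compared as log2(normalized count + 1) with limma 3.58.1 in R 4.3.3 (trend, Benjamini-Hochberg over all tested genes), which was tested on simulated data first. Genes were called below an adjusted p of 0.05 when the fold was 1.2 or more in either direction. Fold changes on this scale understate those of low genes. A group at 0 in every library was set to a floor of 3 reads per library for a lower bound, no fold is given where neither group held more than 3 reads in a library, and a group with 1 to 3 reads in all is compared by the ratio with its counting interval. The p-values measure the spread between these mice. Count models on the recovered reads (edgeR 4.0.16, DESeq2 1.42.0) and the other settings served as alternatives. No per-sample column was left unused.

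The members and all gene lists were chosen with earlier results of these data known. The text names the 10 genes, Pik3r4, the other tubulin and tektin genes, up to 4 called genes of each list in each direction, markers at 0, and the 3 nearest profiles. A gene that this rule would name is not reported here. The overlapping genes and genomic neighbours, Tubb4b-ps1, Tubb2a-ps2, Rbfox3, the low neuronal genes, S100b, Gap43 and Prph fall outside this rule and were named after their values were seen. Symbols, transcripts and exon lengths came from GENCODE M21 (GRCm38, 55141 genes with a symbol), promoters from RefSeq. Shared windows are 100-base runs of a transcript found in another gene's transcript, on either strand.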

Additional observations from a re-analysis of the deposited data

How the results depend on the processing

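The 6 members past the filter kept their direction in each of the settings in which they could be fitted. Their log2 difference lay between 3.05 and 4.10 for Tuba1a, 3.28 and 4.13 for Tubb2a, 6.03 and 7.69 for Tubb2b, 0.83 and 1.63 for Tubb4b and 3.14 and 3.97 for Tubb6, and that of Tekt5 went from 7.05 (pseudocount 10) to 13.68 (pseudocount 0.1), since WT is at 0. In all, 10262 genes were called, 5185 with a fold of at least 2, and 9098 to 10222 with 1 library left out. With total-read scaling, calls higher and lower were 20 and 0 for folding, 14 and 0 for modifying enzymes and 30 and 0 for primary cilium transport, while calls lower were 0 for other tubulins and 1 for the axoneme. With a fold of at least 2, they were 0 and 0 for folding, 3 and 0 for modifying enzymes and 5 and 0 for primary cilium transport, with 0 lower for other tubulins and 9 higher for microtubule-associated proteins. Quantile normalization gave 3 lower for folding, 5 for the axoneme and 7 for primary cilium transport (6 higher). For the axoneme, testing any gene above 0 gave 18 higher and 5 lower, and 20 counts in every library gave 0 and 1. Higher calls for folding were 4 to 7 with 1 library left out, 4 without Vps15LKO replicate 3. Endothelial markers called lower were 0 with total-read scaling (8 higher), 3 with quantile normalization, no trend or edgeR, 3 to 5 with 1 library left out, and 0 with a fold of at least 2 (0 higher). The 1 neuron marker called lower became 0 in most settings (pseudocount 0.1, both other filters, TMM, total reads, DESeq2, replicate block, fold of 2), 0 to 1 with 1 library left out and 2 with quantile normalization, and testing any gene above 0 gave 2 neuron and 1 germ cell marker higher. With 20 counts in every library, 7 cholangiocyte and 5 proliferation markers were higher. Of 55 other named genes, 30 kept their call in every setting in which they were fitted, where 20 counts in every library left 40 of the 55 and a fold of at least 2 was not applied to single genes. With total-read scaling the log2 difference changed sign for Pik3r4 (0.19), Tubg1 (0.057), Pfdn2 (0.0089), Pfdn6 (0.035), Tbcel (0.21), Mapt (0.028), Cfap20 (0.078), Ift46 (0.31) and Ift172 (0.37), and with quantile normalization for Rbfox3 (−1.36). The cause was not tested, beyond the genes and samples that a setting leaves out. The replicate numbers do not pair the samples (correlations of same-numbered deviations −0.0099, −0.011 and 0.049), and a fit with a replicate block called 5065 genes higher and 4983 lower. Depth limits Tekt1, Tekt2, Tekt4 and Tubb3, with at most 14 reads per library for the tektins.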

Other observations

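Next to Tekt5, Nubp1, 16458 bases away, and Tvp23a, 25067 bases away, differed by 0.05 and 0.08 on the log2 scale (limma adjusted p = 0.62 and 0.52), or by 0.78 and 0.80 read per total reads, where both were called. Emp2, 43980 bases from Tekt5, went from 299 ± 26.6 to 858 ± 18.7 normalized counts (SD, n = 3; 1.52, adjusted p = 4.6e-06), and Atf7ip2 was near 0. Bphl starts 200 bases from Tubb2a on the other strand and fell from 2314 ± 400 to 726 ± 217 (−1.70, adjusted p = 0.00017), while Tubb2a was higher. The 3 genes Tuba1a, Tuba1b and Tuba1c lie within a cluster on chromosome 15 and were each higher in Vps15LKO livers.

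The processed copies of Tubb2a and Tubb4b that were looked up held few reads, and copies of the α-tubulin genes were not looked up. Tubb2a-ps2 held 0.416 ± 0.721 normalized counts in the WT and 8.23 ± 2.92 in the Vps15LKO livers (SD, n = 3), and Tubb4b-ps2 held 2.62 ± 0.104 and 5.05 ± 0.257.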
